A study of Trichoderma reesei QM6a with 4 samples.

Results

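Sugar transporters of the major facilitator superfamily were examined in the filamentous fungus Trichoderma reesei, as a set of 10 genes out of 9127 on the array. The set was chosen by gene number and comprised crt1 (ASTRICH3405 on the array), stp1 (ASTRICH47710), xlt1 (ASTRICH104072), hxt1 (ASTRICH22912), the lactose-induced genes ASTRICH79202 and ASTRICH77517, and ASTRICH69957, ASTRICH46819, ASTRICH50894 and ASTRICH67752. The number in all 10 array names matched a locus tag of strain QM6a in RefSeq, which gives a symbol to hxt1 alone. Each gene was read by 5 distinct probes, 50 of the 43565 probes on the array. Total RNA of mycelium was labelled with Cy3 and hybridised to 4 one-colour arrays, 2 of the wild type and 2 of AT01. AT01 is a mutant that accumulates much copper, in the description of the submitters, and the labels name neither its mutated gene nor how it was made. The medium of both strains was YPD (yeast extract, peptone and the sugar glucose) with 1 mM copper sulfate, and growth lasted 5 days at 25 °C. Every array is thus from copper-exposed cells with glucose as the sugar supplied. How much glucose was left at harvest is not known here. Whether the 2 arrays of each strain stand for separate cultures is not in the labels, and p-values measure only the spread between the arrays, possibly a technical one.

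Sugar transporters of this superfamily are membrane proteins that carry mono- or disaccharides into the cell, driven by a proton gradient or by the sugar gradient itself. In T. reesei they supply carbon and also take part in sensing: crt1 is needed for growth on lactose and for the induction of cellulase genes by cellulose or lactose, and stp1 takes up glucose and cellobiose. Many transporter genes for sugars other than glucose are held down while glucose is present, through the repressor Cre1, whereas the activator Xyr1 switches on cellulase and xylanase genes when an inducing sugar enters.

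The arrays were dim, and those of AT01 were brighter. The signal at the 75th percentile was 20.9 and 22.2 for wild type against 41.5 and 39.6 for AT01, and 20906 and 20025 probes against 26551 and 26139 lay well above background. Values below are therefore log2 signals minus the array's own 75th percentile, averaged over the 5 probes of a gene, so that 0 stands for the 75th percentile of that array. Before this scaling the median gene was 0.69 higher in AT01 on the log2 scale, and after it the median gene was 0.23 lower. All 4 arrays came from 1 scan, per the file headers, with the wild type in the first 2 array positions and AT01 in the other two, so position and strain cannot be told apart. The hyphal hydrophobin gene hfb1 was well above background with 4 of 4 probes on every array, and the spore pigment gene pks4 with 0 of 5. The level of hfb1 was itself higher in AT01, by 0.57 on the log2 scale (limma's adjusted p = 0.0147), and its part in the results below was not tested. Of the 4 probes of hfb2, a hydrophobin gene tied to sporulation, 1 was well above background on each wild-type array and 2 on each AT01 array, at a level that was not called different (0.017, limma's adjusted p = 0.924).

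Of the 10 transporter genes, 8 were tested, each with 1 or more probes that exceeded background clearly on both arrays of 1 strain or the other. The genes stp1, hxt1 and ASTRICH67752 were lower in AT01, ASTRICH79202 was higher, and 4 were not called. A gene is called here when limma gave it an adjusted p (Benjamini-Hochberg, over 8016 genes) under 0.05. Over those genes 30.4% were called lower and 14% higher, so 3 and 1 of 8 lay close to the background shares. With quantile normalization, 14.2% of all genes were called higher and 9.09% lower, and of the transporters 1 rose and 2 fell. The median log2 difference of the 8 was -0.31, against -0.23 over all genes tested. Of the 8, AT01 lay below both wild-type arrays for 4 and above them for 1, against 51.4% and 24.5% of all genes tested.

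**Figure D1:**
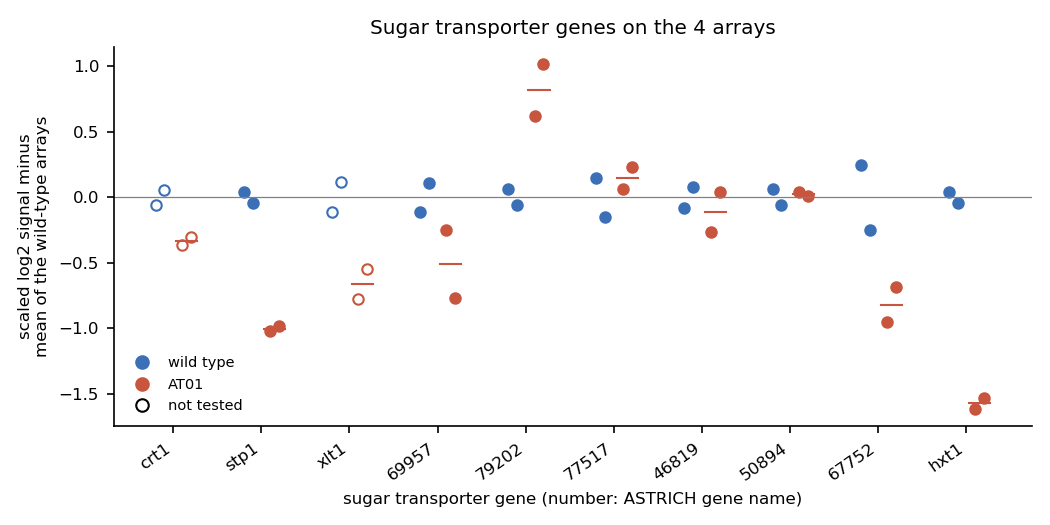
Scaled log2 signal of each transporter gene on each array, shown as the difference from the mean of the 2 wild-type arrays; points are arrays, short lines are AT01 means, and open points are the 2 genes that were not tested. The AT01 arrays of stp1 and hxt1 lie close together and below the wild type, at mean differences of -1.0 and -1.57, while those of ASTRICH79202 lie above it.

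The glucose and cellobiose transporter gene stp1 had all 5 probes well above background on every array, the only one of the 10 measured so fully. It read 2.37 and 2.28 in the wild type against 1.30 and 1.34 in AT01, with no overlap. The difference was -1.0 ± 0.12 (log2, SE, n = 2 arrays per strain), a level 2.0-fold lower in AT01, with an adjusted p of 0.00471 from limma. Of all genes, 3.21% were called lower by at least 2-fold. All 5 of its probes were lower on both AT01 arrays than on either wild-type array, by 0.67 to 1.32 on the log2 scale. Among all probes well above background on both arrays of a strain, 39.2% were lower without overlap and 32.9% higher.

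Before scaling, the geometric mean signal of the stp1 probes was nearly the same on all arrays, at 108 and 108 in the wild type and 103 and 100 in AT01. The unscaled difference was -0.09 (limma's adjusted p = 0.522), while the median gene stood at 0.69. The fall of stp1 is thus one relative to the other genes on the array. With the signals scaled in any of the other ways tried, or an array left out, it was called in 16 of 16 settings, at -0.41 to -1.22.

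The hexose transporter gene hxt1 was called lower, from a low signal, and it entered the test through the wild type alone. It read -2.04 and -2.12 in the wild type and -3.69 and -3.60 in AT01. The fitted difference was -1.57 ± 0.12 (SE, n = 2 arrays per strain; adjusted p from limma 0.00229), but most AT01 spots behind it were not well above background, so its size is not a measured one. With those spots raised to the lowest signal that counted as well above background on their array, hxt1 was 1.26-fold lower in AT01 after scaling. The wild-type spots were left as read, and only 2 of 5 probes were well above background on each wild-type array. The 1.26 is therefore not a lower bound. The probes of hxt1 did not move together. The brightest fell from 13.6 and 8.96 signal units to 6.25 and 5.37, none of the latter well above background. A further 2 probes, each well above background on only 1 wild-type array, lay at or near the lowest signal of the AT01 arrays. The other 2 overlapped between the strains after scaling. Before it they were higher in AT01, at 6.97 and 8.36 units against 3.52 and 4.08, and at 3.34 and 2.80 against 1.51 and 1.57.

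On each wild-type array 2 of the 5 hxt1 probes were well above background, 1 of them the same on both, against 0 probes on AT01 array 1 and 1 on AT01 array 2. When dim probes were all raised to 1 common lower limit, the difference was -1.24, in the authors' deposited table it was -0.77 and with normexp background correction -0.34, all past the threshold. Unlike that of stp1, the geometric mean signal of hxt1 was called lower in AT01 also before scaling (5.09 and 5.11 against 3.21 and 3.26 units, log2 difference -0.66, limma's adjusted p = 0.00438). That fall came from the probes whose AT01 spots were not well above background, while 2 of the 5 probes went the other way. Of all genes, 0.848% were called lower on the unscaled signals and 68.8% higher.

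**Figure D2:**
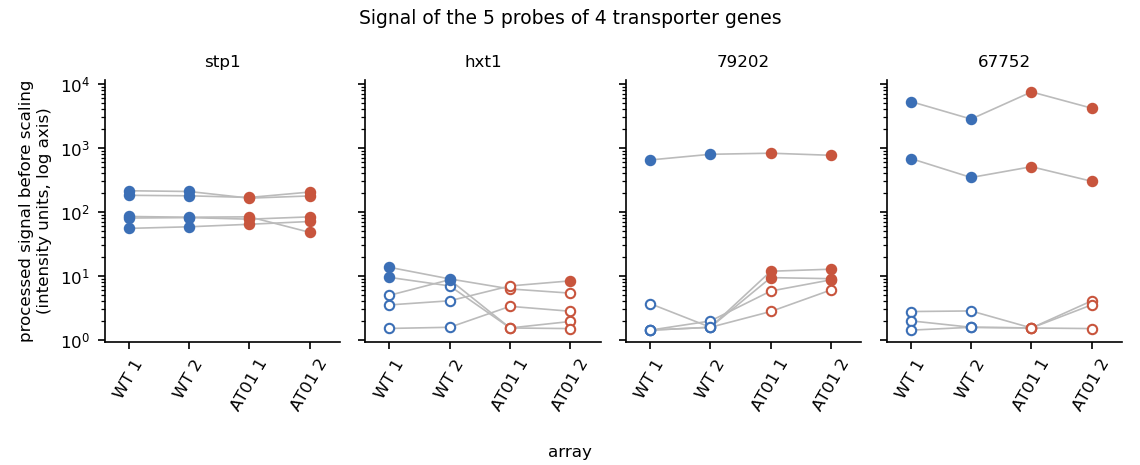
Processed signal before scaling (intensity units, log axis) of the 5 probes of stp1, hxt1, ASTRICH79202 and ASTRICH67752 on the 4 arrays; each line is a probe, and filled points were well above background. The stp1 probes run flat across arrays, hxt1 probes sit near the lower end, and in ASTRICH79202 and ASTRICH67752 1 or 2 bright probes stand far above the others.

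The lactose and cellobiose transporter gene crt1 and the xylose transporter gene xlt1 were not tested. None of the 5 crt1 probes was well above background on a wild-type array, and on each AT01 array 1 was, a different probe each time. The geometric mean signal of crt1 was 2.12 and 2.44 units in the wild type and 3.41 and 3.40 in AT01, below the lowest signal that counted as well above background on any array (7.07 units). On the scaled values AT01 was lower (-3.61 and -3.54 against -3.30 and -3.19), so that detection and scaled value pointed opposite ways, and no fold is given. For xlt1, 0 of 5 probes were well above background on any array, with geometric means of 1.56 and 1.95 units in the wild type and 1.96 and 2.20 in AT01. Neither gene had a level measurable in both strains in this copper and glucose medium.

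The lower end of the scale bears on every dim gene of the set. Of the 50 probes, 10 carried the lowest signal of the array on all 4 arrays, 3 of them xlt1 probes. Such a probe has no measured difference, yet after scaling it reads -0.89, since the AT01 arrays were scaled down further. The genes stp1, hxt1 and ASTRICH79202 had no such probe, and ASTRICH67752 had 1. Probes at the lowest signal on at least 1 array numbered 3 for hxt1, 4 for ASTRICH79202, 3 for ASTRICH67752 and 0 for stp1. The differences of such probes are limited by the lower end of the scale as well.

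**Figure D3:**
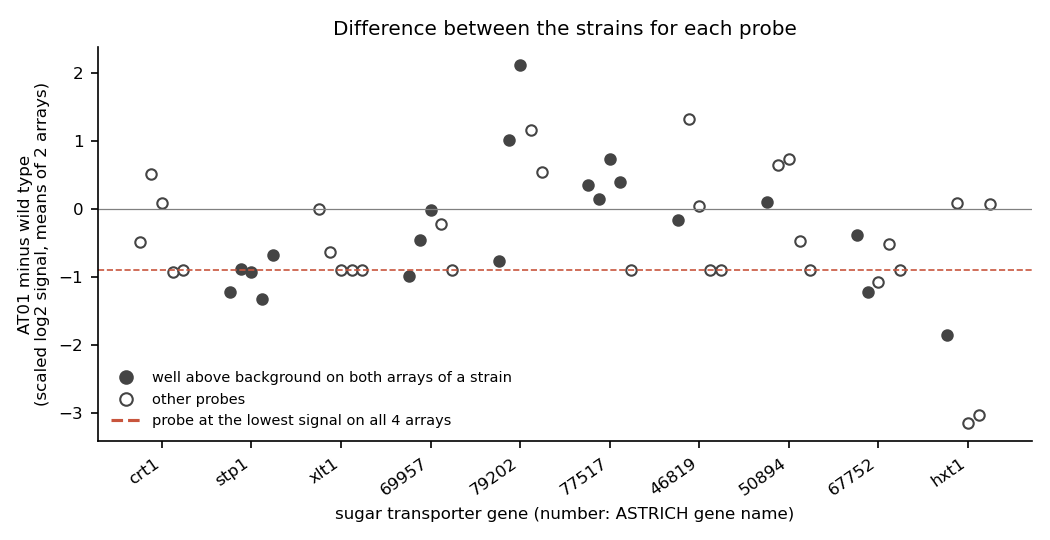
Difference between AT01 and wild type for each of the 50 probes (scaled log2 signal, means of 2 arrays), ordered within a gene by brightness; filled points were well above background on both arrays of a strain. The dashed line at -0.89 is where a probe falls when it carries the lowest signal on all 4 arrays, and 10 open points lie on it.

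Of the genes described as lactose-induced, ASTRICH79202 rose and ASTRICH77517 was not called. The scaled values of ASTRICH79202 were -1.83 and -1.96 in the wild type and -1.28 and -0.88 in AT01, a difference of 0.82 ± 0.17 (SE, n = 2 arrays per strain; adjusted p from limma 0.0142). Its probes disagreed in direction. The brightest, the only one well above background in the wild type, read 647 and 793 units there and 825 and 765 in AT01, which after scaling is a difference of -0.76. The other 4 lay at 1.42 to 3.69 units in the wild type and at 2.78 to 12.7 units in AT01, and 3 of them were higher without overlap. None of these 4 was well above background in the wild type, so no fold is given.

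The call of ASTRICH79202 as higher therefore came from probes that were not detected in the wild type. With its brightest probe alone it was called lower (-0.76, limma's adjusted p = 0.0212). The call was also lost with normexp background correction (-0.11), in the authors' deposited table (0.27) and without AT01 array 2 (0.62, limma's adjusted p = 0.0554). Whether the 5 probes read the same transcript was not tested.

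ASTRICH77517 read -1.84 and -2.14 in the wild type and -1.92 and -1.76 in AT01, and the strains overlapped. The difference of 0.15 had a 95% confidence interval of -0.23 to 0.52 (limma's adjusted p = 0.455). Detection differed: of its 5 probes 2 and 1 were well above background in the wild type, and 4 and 4 in AT01, where more probes of the whole array were too. The test of the difference between these 2 genes was not made.

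The other 4 genes carry no assigned substrate here. ASTRICH67752 was called lower, at 0.57 and 0.07 in the wild type and -0.63 and -0.37 in AT01, a difference of -0.82 ± 0.20 (SE, n = 2 arrays per strain; adjusted p from limma 0.0233). The SD between the wild-type arrays was 0.35. Of its 5 probes 2 were well above background, on every array, and their differences were -0.38, with overlap, and -1.23, without. The other probes were not well above background on any array, yet enter the mean of -0.82. With their AT01 spots raised as for hxt1, the wild-type level of ASTRICH67752 was 0.81-fold that of AT01, so no fall is bounded. The call ended with quantile normalization (-0.25), cyclic loess (-0.23), the common lower limit (-0.45), normexp (-0.22), its brightest probe (-0.38), the mean over detected probes alone (-0.80), and likewise in the authors' deposited table (-0.20). Leaving out an array ended it too, without wild-type array 1 (-0.57), AT01 array 1 (-0.69) or AT01 array 2 (-0.95).

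ASTRICH69957 was not called, at -1.05 and -0.82 in the wild type and -1.19 and -1.71 in AT01. Its difference was -0.51, with a 95% confidence interval of -1.01 to -0.01 and an adjusted p from limma of 0.0866. The strains did not overlap, and the SD between the AT01 arrays was 0.37. Its brightest probe was lower without overlap (-0.98, limma's adjusted p = 0.0263 when the brightest probe of each gene was used), while the other 2 detected probes overlapped. Without AT01 array 1 the gene was called lower at -0.77 (limma's adjusted p = 0.0387).

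ASTRICH46819 and ASTRICH50894 were each measured by 1 detected probe. The differences of these genes also average in their other probes, which were not well above background on both arrays of a strain. For ASTRICH46819 that probe read 12.4 and 19.7 units in the wild type and 30.2 and 23.1 in AT01, and the gene's difference was -0.11 (95% confidence interval -0.49 to 0.27, limma's adjusted p = 0.571). For ASTRICH50894 it read 185 and 212 units in the wild type and 437 and 367 in AT01, without overlap before scaling and with overlap after it, and the gene's difference was 0.03 (95% confidence interval -0.27 to 0.33, limma's adjusted p = 0.875). Both genes overlapped between the strains.

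**Figure D4:**
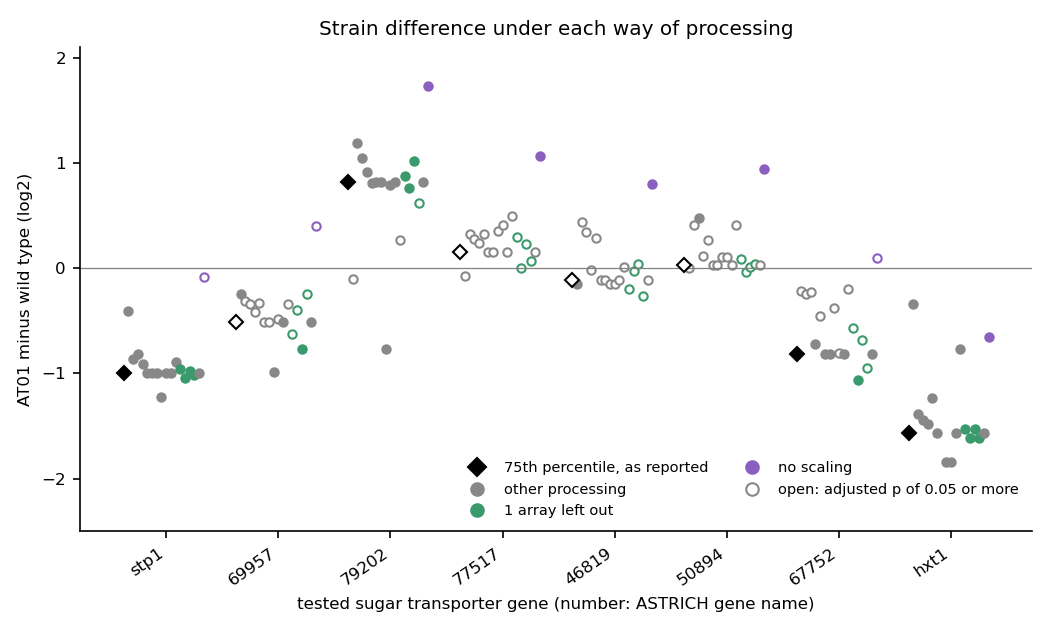
Log2 difference between AT01 and wild type of the 8 tested transporter genes under each way of processing; the diamond is the value reported here, green points leave out 1 array, the purple point uses unscaled signals, and open points had an adjusted p of 0.05 or more. The stp1 and hxt1 points stay below 0 throughout, from -0.09 and -0.34 downward, whereas ASTRICH79202 runs from -0.76 to 1.73.

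Other genes that handle the transported sugars were compared through 5 lists. Outside the transporters, 23 of their genes were tested, of which 7 were called lower, 0 higher and 16 not called in limma (median -0.16), and 1 was higher at an unadjusted p under 0.05. Against 30.4% of all genes called lower, 7 of 23 lay close to the background, while 14% of all genes were called higher. With quantile normalization 2 were called lower and 1 higher, beside 9.09% and 14.2% of all genes. With the common lower limit 4 were called lower and 0 higher, beside 14.9% and 14.0% of all genes. Hexokinase gene hxk1, which phosphorylates the glucose brought in, was not called, at 0.86 and 0.73 in the wild type and 0.43 and 0.60 in AT01 (-0.28 ± 0.13, limma's adjusted p = 0.132).

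Of 4 tested genes of sugar-releasing enzymes 2 fell, and the rest were not called. The gene bga1, for the extracellular beta-galactosidase that splits lactose, differed by -0.65 ± 0.12 and cel1a, for an intracellular beta-glucosidase that splits cellobiose, by -0.79 ± 0.15 (limma's adjusted p 0.0111 and 0.0108). With quantile normalization neither was called (-0.34 and -0.24), and cel1a was not called with the common lower limit either (-0.24). For cel1a 1 probe was well above background on wild-type array 1, 0 on wild-type array 2 and 1 on each AT01 array. It thus entered the test through AT01, opposite to its fall. Among the 8 tested genes listed under galactose and pentose use, 3 fell (xyl1, lad1 and gal7) and 5 were not called. For xyl1, the xylose reductase gene, the difference was -0.70 ± 0.14 (limma's adjusted p = 0.0130), and -0.63 with quantile normalization, also called. The gene lad1, for L-arabitol dehydrogenase, gave -0.82 ± 0.17 as the mean over its probes. The only probe of lad1 that was well above background was so in AT01 and not in the wild type, opposite to the fall, and the call ended with the common lower limit (-0.26). The gene gal7 was called at -0.39, but not under the common lower limit (-0.30, adjusted p from limma 0.125) or quantile normalization (-0.32). Its probes well above background numbered 1 and 2 in the wild type and 3 and 4 in AT01. The gene lxr1, placed in this list by its symbol, was not called (0.76 ± 0.25, limma's adjusted p = 0.0508). It was called higher with quantile normalization (0.98) and cyclic loess (1.01).

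Of 7 tested regulators xyr1 alone was called, lower by limma at -0.77 ± 0.13 (adjusted p = 0.00885), and it was still called at -0.74 with quantile normalization. The repressor gene cre1 differed by -0.23 ± 0.12 (limma's adjusted p = 0.171), and by 0.23 with quantile normalization. The activator gene ace3 differed by -0.02. Of 3 glycolysis genes gpd1, for glyceraldehyde-3-phosphate dehydrogenase, was called lower at -0.60 ± 0.12 (limma's adjusted p = 0.0129), a call lost with quantile normalization (-0.32).

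**Figure D5:**
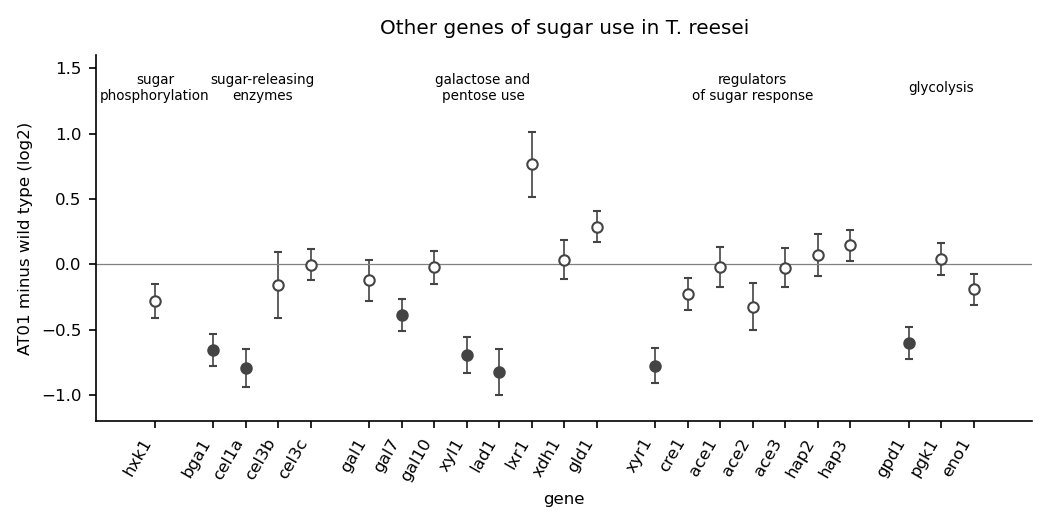
Log2 difference between AT01 and wild type for the 23 tested genes of sugar use outside the transporters, grouped by list; points are limma estimates with their SE (n = 2 arrays per strain), and filled points were called. The 7 filled points all lie below 0, and lxr1 is the highest open point, at 0.76, a gene called higher with quantile normalization and cyclic loess.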

How the data were processed

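Per the file headers, the deposited intensity values are linear processed signals with the background already taken off. The submitters' processing notes name Agilent Feature Extraction 10.5.1.1. The deposited value table holds log2 values, since its columns tracked the log2 signals of their arrays (r across 28201 probes 0.993 to 0.996) with medians of 4.31. How the authors normalized it and chose its probes is not given in the sources used here.

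Control spots and outlying spots (13 to 117 per array) were left out, and no probe was saturated. From the log2 signals the 75th percentile of the array (43565 probes) was subtracted, and the probes of a gene were averaged. Genes entered the fit if a probe was well above background on each array of a strain, which left 8016, and AT01 was compared with wild type in limma 3.58.1 (lmFit, eBayes; R 4.3.3) with Benjamini-Hochberg adjustment over all of them. With 2 arrays per strain, their number limits the precision. The SEs and p-values of limma are moderated, so each gene's variance between arrays is drawn toward a value shared by all genes. Single probes were described without a test. In a test on data simulated for 8016 genes around the measured wild-type levels, 200 genes were changed in each of 20 runs. There 1.8% of changes of 0.5, 60% of changes of 1 and 97.8% of changes of 2 on the log2 scale were recovered. Of the calls 4.87% were false. In the measured data 1122 genes were called higher and 2435 lower, so these rates do not give the power of the comparison made here.

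The members and the gene lists were chosen with earlier results of these data known. Named are all members and, from each list, at most the 2 largest called rises and falls, while hxk1, cre1, ace3, gal7 and lxr1 were added after their values were seen. Of the 50 list entries outside the members, 25 were matched on the array, by symbol in RefSeq's v2.0 table or, for bga1 and ace3, by gene number. The files name no genome build, so no coordinates are given. Median spot signals were used for normexp, because the files hold no mean signal. Alternatives were normexp, quantile and cyclic loess normalization, other percentiles, limits, filters and probe choices, another prior, the deposited table, leaving out each array, and the replicate number as a block. Unscaled signals were added after seeing the data. A slide block was not fitted, as all arrays share 1 scan. Of the 50 member probes, 28 are in the deposited table.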

Additional observations from a re-analysis of the deposited data

How the results depend on the processing

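With scaled signals stp1 was called lower under every alternative. So was hxt1 where tested, always on mostly undetected AT01 spots, and detection on all arrays left it untested. Leaving out arrays, stp1 lay at -0.96 to -1.05 and hxt1 at -1.53 to -1.61. The count of transporters called higher was 1, against 0 with normexp, the brightest probe and the authors' deposited table, and 2 with cyclic loess, where ASTRICH50894 was added at 0.47 (at an unadjusted p under 0.05 in limma the counts were 0, 0, 2 and 2, and 10.2%, 10.1%, 14.9% and 14.8% of all genes were called higher). The count called lower was 3 (30.4% of all genes). It was 4 with normexp (54.5%), and with the brightest probe, the trended prior and no filter on dim genes (30.0% to 33.6%). It was 2 with quantile normalization, cyclic loess, the common lower limit, the mean of detected probes and the deposited table (9.09% to 20.9%). Detection on all arrays also gave 2 (33.4%). ASTRICH69957 was called lower with normexp (-0.24), the brightest probe (-0.98) and the trended prior (-0.51). With unscaled signals, added after seeing the data, 4 were called higher and 1 lower, against 68.8% and 0.848% of all genes. With an array left out a strain rests on a single array, so no counts of calls are given for it. There ASTRICH79202 ran from 0.62 to 1.02 and ASTRICH67752 from -1.07 to -0.57.

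Direction changed as follows. ASTRICH46819, not called, turned to 0.44 with quantile normalization, 0.34 with cyclic loess, 0.29 with the common lower limit, 0.014 in the deposited table and 0.80 unscaled, and spanned -0.27 to 0.040 with single arrays dropped, positive without AT01 array 1. It was called lower with normexp (-0.15) and higher unscaled. ASTRICH79202 turned to -0.76 with the brightest probe and -0.11 with normexp, and ASTRICH77517 to -0.077 with normexp. With an array left out ASTRICH77517 ran from -0.00014 to 0.30 and ASTRICH50894 from -0.035 to 0.087, both negative without wild-type array 2. Unscaled, ASTRICH69957 turned to 0.40 and ASTRICH67752 to 0.096. The normexp offset of 50 shrinks differences of dim genes by construction. The cause of the other changes was not tested. Without the filter on dim genes xlt1 was called lower (-0.66) with 0 probes well above background.

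Deviations of same-numbered arrays from their strain means correlated at 0.01 across genes, and the labels give a number without saying what it pairs. With the replicate number as a block, 4 transporters were called lower (33.0% of all genes), with ASTRICH69957 added at -0.51, and 1 higher. Signal near background limits crt1, xlt1, hxt1, the 4 dim probes of ASTRICH79202 and the dim probes of every other member except stp1.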

Other observations

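The genes next to the transporters in RefSeq's order were compared as well, 20 in all, of which 12 were tested. Of these 5 were called lower and 0 higher in limma, with a median of -0.28, and 0 were higher at an unadjusted p under 0.05, beside 30.4% and 14% of all genes tested. Next to stp1, TRIREDRAFT_61354 fell by 0.80 ± 0.13 on the log2 scale (limma's Benjamini-Hochberg adjusted p = 0.00769), and the gene on the other side, TRIREDRAFT_29142, was not called (-0.24, limma's adjusted p = 0.165). Next to hxt1, TRIREDRAFT_80340 was called lower at -0.50 ± 0.16 (limma's adjusted p = 0.0494) and TRIREDRAFT_4996 was not called (0.21, limma's adjusted p = 0.238). Both neighbours of ASTRICH79202 had too few detected probes to be tested. So had both neighbours of ASTRICH77517, one of which is cel1b, an intracellular beta-glucosidase gene.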
